A study of Mus musculus with 3 samples.

Results

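Meningeal fibroblasts were examined in single-cell RNA-seq of the meninges, the membranes that wrap the brain. They were chosen by a rule on measured values. A droplet barcode had to pass the filters on unique molecular identifiers (UMIs, which count captured RNA molecules), genes and mitochondrial RNA. In addition, 6 genes (*Dcn*, *Col1a1*, *Col1a2*, *Col3a1*, *Lum* and *Apod*) had to make up at least 1% of its UMIs, with at least 3 of the 6 detected. The rule kept 70 of the 7057 barcodes that passed the filters (0.992%). These were 38 of 2599 in HC pool 1, 20 of 1702 in HC pool 2 and 12 of 2756 in the CSD pool.

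The libraries came from male C57BL/6J mice aged 10 to 12 weeks, each from the pooled meninges of 4 mice, and are called HC pool 1, HC pool 2 and the CSD pool. HC mice stayed unstressed in the home cage (2 libraries), and CSD mice went through 14 days of chronic social defeat (1 library). Per the paper, mice of both groups were tested for behaviour, and the CSD mice used were susceptible to stress. Membranes were picked from brain and skull and digested with collagenase. Live nucleated single cells were sorted and each pool ran in its own lane of a single 10x chip. Since every library is a pool, the spread between the HC libraries is that between pools, and mice within a pool cannot be told apart. The 3 libraries held 9891861, 8814690 and 10206236 UMIs in all.

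Meningeal fibroblasts are the stromal cells of the dura, arachnoid and pia. They secrete fibrillar collagens and the small proteoglycans that space the fibrils, and those of the inner layers also carry transporters and enzymes that act at the border with the cerebrospinal fluid. Fibroblasts around vessels, often called adventitial, express a set of secreted and surface proteins of their own, among them *Pi16* and *Clec3b*.

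The fibroblasts were of ordinary depth for these libraries. Their median UMI count was 2825 in HC pool 1, 2790.5 in HC pool 2 and 2171 in the CSD pool, beside 2497, 2203.5 and 2400.5 for all other barcodes that passed. In total they supplied 105629, 57783 and 27860 UMIs, so the CSD library gave the fewest molecules of the 3 and the least precise levels. Of the 70 cells, 62 held at least 1000 UMIs (34, 18 and 10 per library). No barcode sequence was shared between libraries among the fibroblasts, and 17 were shared among all barcodes that passed.

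The rule genes made up a median of 3.8%, 2.92% and 4.32% of a fibroblast's UMIs in HC pool 1, HC pool 2 and the CSD pool. The highest cell reached 20.3%, 8.04% and 19.5%. Near the threshold, the 3 lowest cells kept stood at 1.03, 1.25 and 1.32% in HC pool 1, at 1.04, 1.13 and 1.15% in HC pool 2 and at 1.84, 1.96 and 2.24% in the CSD pool. Among barcodes with at least 3 rule genes detected, the highest that missed the 1% stood at 0.922%, 0.974% and 0.403%, and 9 barcodes of HC pool 1, 8 of HC pool 2 and none of the CSD pool lay between 0.5 and 1%. A further 5, 3 and 1 barcodes reached 1% of UMIs but had fewer than 3 rule genes detected and were left out. Of the 70 cells, 21 lay between 1 and 2%.

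**Figure D1:**
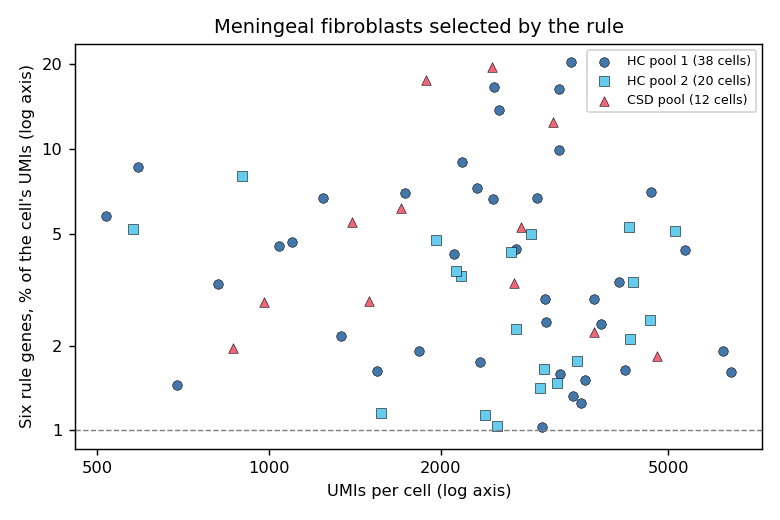
Each point is 1 fibroblast, with its UMIs on the horizontal log axis and the share of its UMIs taken by the 6 rule genes on the vertical log axis. The dashed line marks the 1% threshold, and the 12 CSD cells (triangles) lie from 1.84 to 19.5%.

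The fibroblast markers are themselves genes of the rule, so their levels describe the selection and are no independent check of the cell type. *Dcn*, which encodes the collagen-binding proteoglycan decorin, had at least 1 UMI in all 70 cells. Its level in the summed fibroblasts was 31128, 22965 and 30330 CPM (UMIs scaled to a common total per library) in HC pool 1, HC pool 2 and the CSD pool, against 127, 136 and 31.6 CPM in the other barcodes. Free RNA, taken from barcodes of at most 100 UMIs, held 672, 488 and 139 CPM. Thus each fibroblast sum lay far above both backgrounds, as the rule required. These levels count 3′ tags, 1 per molecule, and were not divided by transcript length.

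*Lum*, for the related proteoglycan lumican, read 2433, 1211 and 2046 CPM in HC pool 1, HC pool 2 and the CSD pool. Among the fibrillar collagens, *Col1a2* read 1392, 865 and 969 CPM and *Col3a1* read 1079, 727 and 682 CPM. *Col1a1* read 871, 554 and 682 CPM. For *Lum*, *Col1a1* and *Col1a2* the CSD library lay between the HC libraries, and for *Col3a1* it lay just below both. *Apod*, for the lipid carrier apolipoprotein D, varied most of the 6, at 13727, 4517 and 32807 CPM, with the CSD library highest.

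Cells thinned to 500 UMIs gave the shares of fibroblasts with a transcript at equal depth. A *Dcn* UMI was then left in 94.7% (95% exact Clopper-Pearson interval 82.3 to 99.4), 100% (83.2 to 100) and 91.7% (61.5 to 99.8) of fibroblasts in HC pool 1, HC pool 2 and the CSD pool. In lymphocytes, which should lack it, the share was 2.56%, 4.31% and 1.57%, at median depths of 2569, 2853 and 2082 UMIs before thinning. *Lum* was left in 55.3%, 30% and 50% of fibroblasts and in 0.853%, 0% and 0.157% of lymphocytes, where 0 of 673 allows up to 0.547%. Without thinning, *Lum* was found in 73.7%, 60% and 83.3% of fibroblasts and in 5.12%, 1.78% and 0.315% of lymphocytes, and *Dcn* in 100% of fibroblasts in each library and in 32.3%, 29.1% and 9.29% of lymphocytes. These intervals, and those that follow, cover counting error only.

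Markers of other stromal and vascular cells were mostly lacking. Of 9 endothelial genes 7 had no UMI in any fibroblast, *Pecam1*, *Cldn5*, *Kdr* and *Flt1* among them, and the list summed to 18.9 CPM in HC pool 1 and 0 in the other libraries. Of 9 mural cell genes 4 were at 0 (*Rgs5*, *Myh11*, *Notch3* and *Des*), and the sum was 133, 138 and 71.8 CPM, led by *Acta2* in HC pool 1 (66.3 CPM), by the channel subunit gene *Abcc9* in HC pool 2 (86.5 CPM) and by *Tagln* in the CSD pool (71.8 CPM). The Schwann and ensheathing glia list had *Sox10* and *Fabp7* at 0 and summed to 322, 208 and 215 CPM, most of it *S100b*. Bone genes stood out in a few cells. *Bglap*, which encodes osteocalcin, had 30 UMIs in 2 cells of HC pool 1, 23 in 1 cell of HC pool 2 and 0 in the CSD pool, and the bone list summed to 682, 467 and 0 CPM, with *Sp7* and *Dmp1* at 0. The cartilage and tendon list summed to 208, 450 and 287 CPM, with *Comp* most abundant and *Acan* and *Scx* at 0.

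Neutrophil RNA was present in every fibroblast, at a fraction of its level in free RNA. *S100a8*, an abundant neutrophil gene, read 14248, 10314 and 14573 CPM in the fibroblasts of HC pool 1, HC pool 2 and the CSD pool. It read 51385, 51537 and 68436 CPM in the free RNA of the same libraries. From 10 neutrophil and B cell genes, the share of fibroblast UMIs that matched free RNA was estimated at 25.9%, 20.8% and 21.4%. The border macrophage list summed to 2357, 1748 and 1113 CPM in fibroblasts against 9604, 7720 and 4618 CPM in free RNA, with *Cd74* most abundant. The erythroid list summed to 1837, 2942 and 4523 CPM against 5234, 14422 and 28501 CPM. For all of these lists the fibroblasts lay below the free RNA of their own library.

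Smaller sums of the same kind came from other lists. B cell genes summed to 114, 242 and 71.8 CPM in the fibroblasts of HC pool 1, HC pool 2 and the CSD pool. T and NK cell genes gave 104, 104 and 108 CPM, with *Nkg7* most abundant. All of these sums lay below those of free RNA, where B cell genes gave 371, 818 and 254 CPM and T and NK cell genes 279, 489.7 and 341 CPM. Olfactory neuron genes gave 379, 467 and 108 CPM, with *S100a5* most abundant, and choroid epithelium genes gave 9.47, 104 and 0 CPM. The brain list held *Meg3*, a noncoding RNA that the fibroblasts themselves carried at 663, 709.6 and 682 CPM, with *Gfap*, *Aqp4*, *Slc1a2* and *Mog* at 0. Of 11 cell cycle genes none was found in more than 15% of the fibroblasts.

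**Figure D2:**
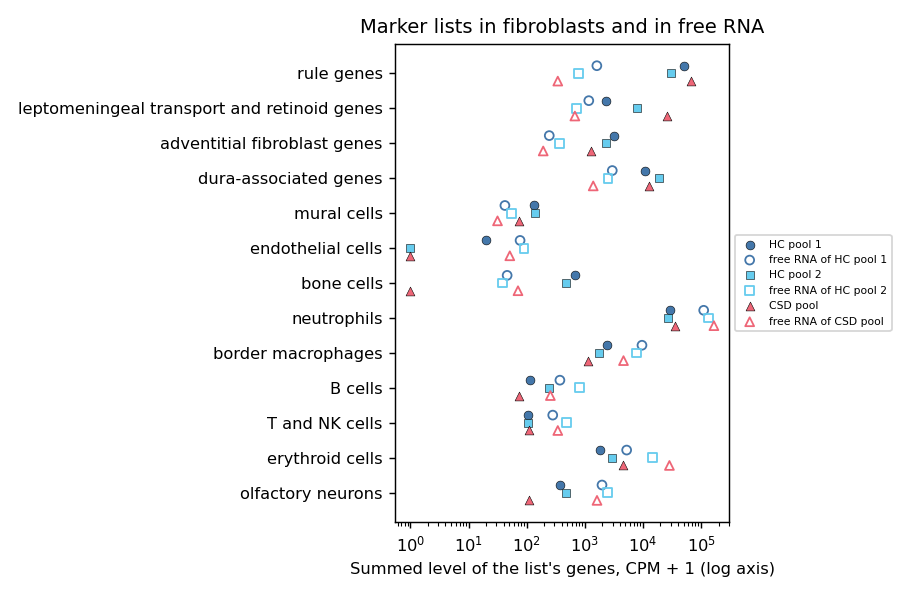
Summed levels of marker gene lists in CPM plus 1 on a log axis, for fibroblasts (filled) and for the free RNA (open) of each library. Rule genes lie far above free RNA, while neutrophil, macrophage and erythroid genes lie below it and the endothelial list is at 18.9, 0 and 0 CPM.

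Beyond the rule genes, the genes most in excess of the other barcodes were mostly secreted proteins and enzymes. They are described without a test, since the rule picked the cells from the same counts. Among the top 12 were *Inmt*, *Ptgds*, *Serping1*, *Gsn*, *Ccl11*, *Gpx3*, *Smoc2*, *Igfbp6*, *Aspn*, *Pcolce* and *Igfbp7*. *Gsn*, for the actin-severing protein gelsolin, was the most abundant in both HC libraries, at 11370 and 9328 CPM with 6748 CPM in the CSD pool, against 145, 175 and 137 CPM in the other barcodes. *Serping1*, the inhibitor of the first complement protease, read 1676, 2492 and 1077 CPM. *Gpx3*, a secreted glutathione peroxidase, read 2708, 2977 and 1005 CPM. For these 3 genes the CSD library was the lowest.

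*Ccl11*, for the eosinophil attractant eotaxin, read 672, 190.4 and 359 CPM in the fibroblasts of HC pool 1, HC pool 2 and the CSD pool. In the other barcodes that passed the filters it was at most 0.386 CPM, and in free RNA it was 5.14, 8.46 and 0 CPM. *Inmt*, a methyltransferase of small amines, read 814, 1938 and 754 CPM. *Igfbp6* and *Igfbp7*, which bind insulin-like growth factors, read 1874, 3704 and 2118 CPM and 2083, 1783 and 2369 CPM. *Pcolce*, which speeds the trimming of procollagen, read 1022, 1177 and 1400 CPM. *Aspn*, another small proteoglycan, read 331, 744 and 359 CPM, and *Smoc2*, a matrix-associated calcium-binding protein, read 889.9, 848 and 359 CPM. The HC libraries differed by more than a factor of 2 for *Ccl11*, *Inmt* and *Aspn*, which shows the spread between pools of like treatment.

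**Figure D3:**
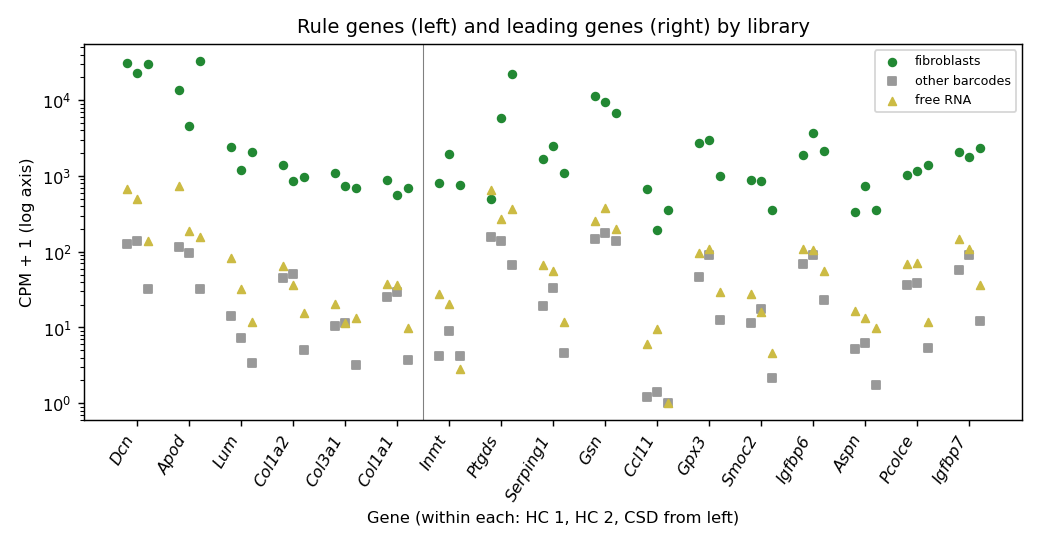
Levels in CPM plus 1 (log axis) of the 6 rule genes and 11 of the leading genes in fibroblasts, in all other barcodes that passed and in free RNA, with the 3 libraries side by side for each gene. Fibroblast levels lie above the other barcodes for all genes shown, and *Ptgds* alone has a fibroblast value below its free RNA (502 against 651 CPM in HC pool 1).

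Matrix genes outside the rule were measured next. *Mgp*, for the calcification inhibitor matrix Gla protein, read 8767, 16458 and 11235 CPM in HC pool 1, HC pool 2 and the CSD pool. The collagen- and calcium-binding protein gene *Sparc* read 4563, 3790 and 3877 CPM. Of 33 genes for matrix glycoproteins and elastic fibres 32 were detected in the fibroblasts, and the list summed to 20411, 25578 and 20639 CPM. The 9 fibrillar collagens, with *Col11a2* at 0, summed to 3484, 2336 and 2692 CPM, most of it the rule genes *Col1a1*, *Col1a2* and *Col3a1*, so this sum describes the selection. The other 18 collagens summed to 1325, 1454 and 1184 CPM and the 16 basement membrane genes to 928, 848 and 1077 CPM. The CSD pool lay between the HC pools for the glycoproteins, just below both for the other collagens and just above both for the basement membrane genes, and no test was run on the sums.

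Genes that handle the matrix were present as well. The list for collagen folding and crosslinking, with *Serpinh1*, the collagen chaperone, at 748, 813 and 610.2 CPM, summed to 3399, 3565 and 3446 CPM. Matrix proteases and their inhibitors summed to 11891, 15143 and 9907 CPM, with the cathepsin inhibitor *Cst3* most abundant, whose 6438, 9224 and 4594 CPM stood beside 4722, 4036 and 2179 CPM in the other barcodes. Of the small leucine-rich proteoglycans outside the rule, *Bgn* (biglycan) read 606, 1021 and 574 CPM. The whole list summed to 35644, 26946 and 34422 CPM, most of it the rule genes *Dcn* and *Lum*, so that level was fixed by the selection. The insulin-like growth factor axis summed to 8615, 8532 and 7681 CPM. Its member *Igfbp5* read 3134, 1350 and 1041 CPM.

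The fibroblasts were not alike among themselves. Per 10000 UMIs, *Apod* ranged from 0 to 1035 with a median of 52.3 in HC pool 1, from 0 to 357 with a median of 11.8 in HC pool 2 and from 4.18 to 1040 with a median of 150.0 in the CSD pool. *Mgp* ranged from 0 to 361, 598 and 347 with medians of 18, 70.2 and 25.7. *Dcn*, a rule gene, ranged from 14.5 to 1338, from 46.3 to 452 and from 13.4 to 809. Its medians of 205, 215 and 164 differed less between libraries than those of *Apod* and *Mgp*. The ranges of the 3 libraries overlapped for each of these genes.

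**Figure D4:**
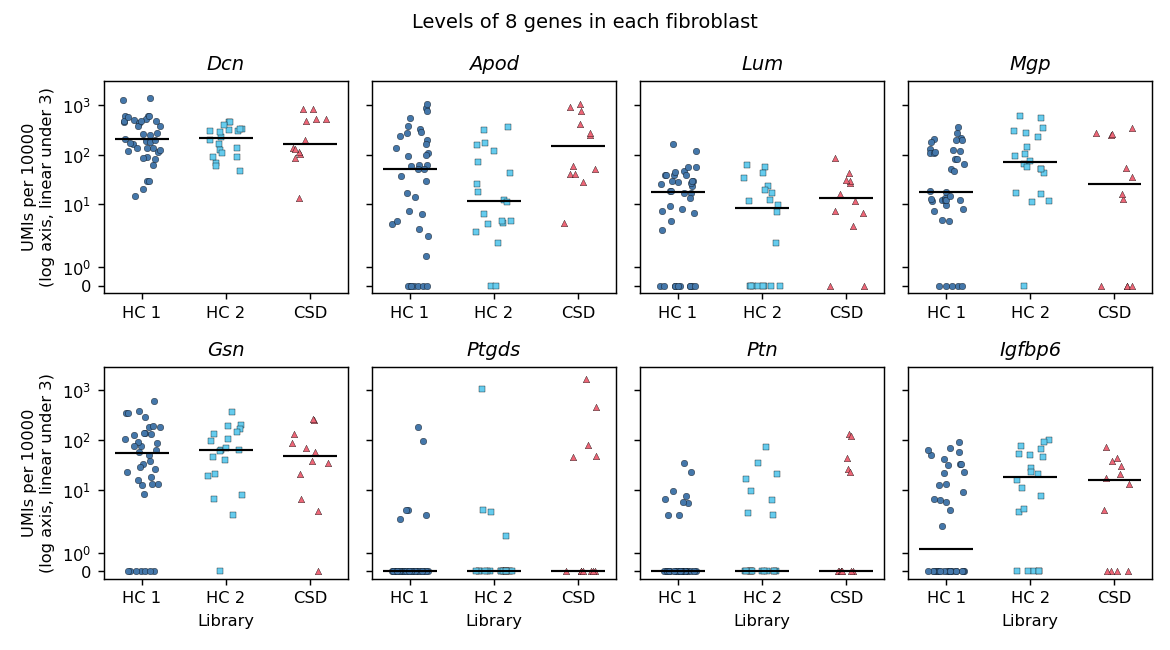
UMIs per 10000 for 8 genes in each fibroblast, by library, on an axis that is logarithmic above 3 and linear below, with black bars at the medians. *Dcn* is present in every cell, whereas *Ptgds* and *Ptn* have medians of 0 in each library and a few high cells.

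*Ptgds*, the synthase of prostaglandin D2 and a gene of the inner meningeal layers, was held by few cells. It had at least 1 UMI in 15 of the 70 cells and at least 10 UMIs in 5 of them (1, 1 and 3 in HC pool 1, HC pool 2 and the CSD pool). The highest cell of each library held 75.5%, 99.1% and 75.9% of that library's *Ptgds* UMIs. Without that cell the fibroblast level of 502, 5746 and 22003 CPM became 126, 54.8 and 5896 CPM, so a single cell set the HC pool 2 value. The 3 CSD cells with at least 10 *Ptgds* UMIs held 14 UMIs of *Slc6a13*, a transporter of GABA and taurine, and no *Mgp* UMI. The 9 other CSD cells held 4 UMIs of *Slc6a13* and 313 of *Mgp*. Of the 5 *Ptgds*-rich cells, 3 lacked a *Gsn* UMI and 4 were among the barcodes with the highest doublet scores, and the part of doublets in this group was not tested. This split was made after the values were seen.

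Clustering of the 62 cells with at least 1000 UMIs gave 3 groups, described here by their leading genes and without a test. A group of 20 cells was led by *Inmt*, *Pi16*, *Clec3b*, *Dpep1* and *Ly6c1*. With *Pi16* in 13, *Clec3b* in 14, *Ly6a* in 12, *Dpt* in 11 and *Ly6c1* in 6 of its cells it was called adventitial fibroblast-like. All of these were among the group's own leading genes, so the name is a description. Of the other preset adventitial markers, *Dpp4* had 1, 1 and 0 UMIs in all fibroblasts of HC pool 1, HC pool 2 and the CSD pool. *Cd34* had 37, 18 and 4 UMIs and was not counted by group. A group of 27 cells was led by *1500015O10Rik*, *Clu*, *Ptp4a2*, *Fxyd5* and *Col12a1* and had the highest *Mgp*, at 16545 CPM. A group of 15 cells was led by *Apod*, *Trf*, *Ptgds*, *Btg2* and *Vwa1*, and there *Apod* reached 46071 CPM and *Mgp* 1844 CPM. The latter groups carried too few of the preset markers for a name. HC pool 1, HC pool 2 and the CSD pool gave 11, 7 and 2 cells to the adventitial fibroblast-like group, 15, 10 and 2 to the *1500015O10Rik* group and 8, 1 and 6 to the *Apod* group. Since *Apod* and *Ptgds* also differed between libraries, these sizes were not compared between HC and CSD.

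Whether the fibroblast compartment differed after CSD was examined first through its share of the barcodes that passed. The share was 1.46% (95% exact Clopper-Pearson interval 1.04 to 2) in HC pool 1, 1.18% (0.719 to 1.81) in HC pool 2 and 0.435% (0.225 to 0.759) in the CSD pool. The CSD library was the lowest, and its interval overlapped that of HC pool 2 but not that of HC pool 1. The CSD share minus the mean of the HC shares was -0.883 percentage points, and the SD of the HC shares was 0.203 points. No test was run, as 1 library against 2 cannot reach a permutation p of 0.05. Among barcodes of at least 1000 UMIs the shares were 1.44%, 1.26% and 0.401%. With the rule genes at 5% of UMIs or more the shares were 0.539%, 0.235% and 0.218%, and the difference from the HC mean was then -0.169 points, smaller than the SD of 0.215.

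Other measures moved with that share. Rule genes made up 0.161%, 0.0785% and 0.0341% of free RNA in HC pool 1, HC pool 2 and the CSD pool, and 0.0333%, 0.0324% and 0.0074% of the UMIs of all other barcodes that passed. The CSD library was lowest on both. A share of barcodes also depends on how many other cells each pool yielded, since neutrophil genes took 134139, 130109 and 206545 CPM of the other barcodes. A lower number of fibroblasts and a higher number of other cells cannot be told apart here.

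Expression in fibroblasts was then compared between CSD and HC by summing UMIs per library. Few genes passed the test, which had little power with these libraries, so a gene that was not called is not shown to be alike in both groups. Of 2301 genes found in more than 15% of the fibroblasts, the quasi-likelihood test of edgeR, adjusted after Benjamini-Hochberg, called 2 higher and 0 lower in CSD at an adjusted p of 0.05 (0.0869% of genes tested). Both, *Btg2* and *Ptn*, were higher in CSD. At an unadjusted p of 0.05 there were 184 genes. DESeq2 called 0, with 12 at that unadjusted p. With the cells of at least 1000 UMIs, edgeR called 0 of 2459 genes (0%), with 105 at the unadjusted p, and DESeq2 called 0, with 9. The test rests on the spread between the HC libraries, which the lone CSD library was assumed to share.

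*Ptn* (ENSMUSG00000029838), for the secreted growth factor pleiotrophin, had 24 UMIs in 9 fibroblasts of HC pool 1, 42 in 8 of HC pool 2 and 77 in 5 of the CSD pool. These were 227, 727 and 2764 CPM. The CSD library was above both HC libraries, which themselves differed by a factor of more than 3. The log2 fold change was 2.67 ± 0.44 (SE, edgeR adjusted p = 0.0174). Leaving out the highest cell of each library left 155, 365 and 1633 CPM. In the CSD pool, 52 of the 77 UMIs lay in the 3 *Ptgds*-rich cells. The 9 other cells held 1195 CPM against 184 and 365 CPM in the matching cells of the HC libraries. Of those 9 cells, 1 with 9 *Ptgds* UMIs held 23 *Ptn* UMIs and 1 with 4 *Ptgds* UMIs held 2. The rest held none, so a single cell largely set the 1195 CPM. All *Ptn* UMIs of the CSD pool thus lay in cells with *Ptgds*. The log2 fold change was 2.00 against HC pool 2 alone and 3.61 against HC pool 1 alone. Without the barcodes of highest doublet score it was 3.24, and *Ptn* was called there. That cut took out the HC pool 2 cell with 22 of its 42 *Ptn* UMIs. It left CSD cells with 36, 23 and 2 *Ptn* UMIs. The part of these few cells in that call was not tested. *Ptn* was not called with DESeq2 (log2 fold change 2.62), with genes of at least 10 UMIs (2.62), with free RNA subtracted (2.61) or with cells thinned to 500 UMIs (2.07).

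*Btg2* (ENSMUSG00000020423), an early response gene that slows cell division, had 16, 9 and 29 UMIs in 11, 6 and 3 fibroblasts, or 151, 156 and 1041 CPM, in HC pool 1, HC pool 2 and the CSD pool. The HC libraries were nearly equal and the CSD library was higher, with a log2 fold change of 2.79 ± 0.44 (SE, edgeR adjusted p = 0.0174). However, 65.5% of the CSD UMIs came from 1 cell. Without the highest cell the levels were 126, 114 and 379 CPM. *Btg2* was among the leading genes of the *Apod* group of clustered cells, at 909 CPM against 116 CPM in the other groups, and that group held 8, 1 and 6 cells of HC pool 1, HC pool 2 and the CSD pool. The part of this makeup in the difference was not tested. Without the barcodes of highest doublet score the log2 fold change was 0.29 (edgeR adjusted p = 0.957), and over all alternatives the adjusted p ran from 0.00296 with DESeq2 size factors in edgeR to 1 with DESeq2. The other barcodes held 544, 595 and 374 CPM, so *Btg2* was no mark of fibroblasts.

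**Figure D5:**
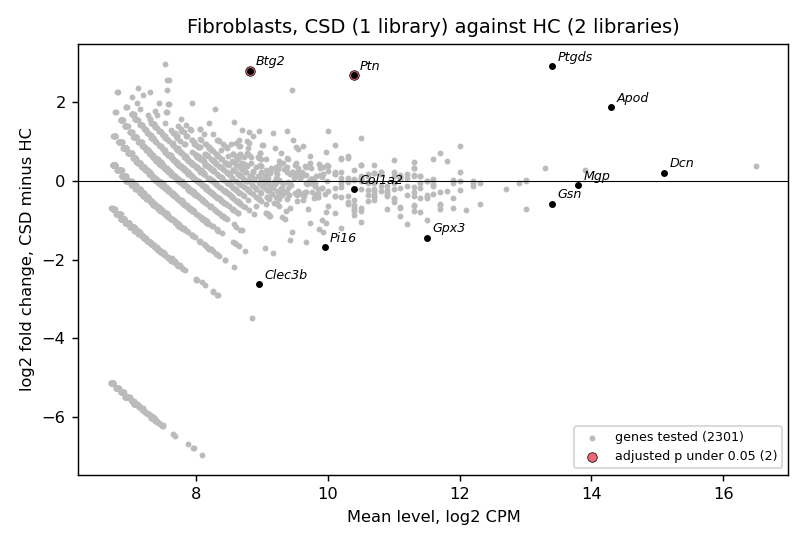
Log2 fold change of CSD against HC in fibroblasts over the mean log2 CPM for the 2301 genes tested, with 2 genes called at an adjusted p of 0.05 ringed and some named genes marked. The separate band at the bottom holds genes with no UMI in the 12 CSD cells.

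Among cells of at least 1000 UMIs no gene was called, and the largest differences in each direction with the CSD library outside both HC libraries are given as values. Upward these included *Btg2*, *Ptgds*, *Ifitm1* and *Ptn*, with log2 fold changes of 2.96, 2.95, 2.77 and 2.74 (edgeR adjusted p = 0.833 for each). In all fibroblasts *Ifitm1*, an interferon-induced membrane protein gene, had 7, 2 and 12 UMIs in HC pool 1, HC pool 2 and the CSD pool, or 66.3, 34.6 and 431 CPM. The other barcodes of the same libraries held 82.1, 80.6 and 328 CPM of *Ifitm1*, higher in CSD as well. With free RNA subtracted, the log2 fold change of *Ifitm1* in cells of at least 1000 UMIs was 2.96 (edgeR adjusted p = 0.777).

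The downward genes had no UMI in the CSD cells of at least 1000 UMIs, so their folds are bounds set by 3 counts in that library (115 CPM). *Ctss* (cathepsin S, a protease of phagocytes) was at least 2.42-fold lower, *Lbp* (which binds bacterial lipopolysaccharide) at least 2.06-fold, *1810058I24Rik* at least 2.02-fold, *Paip2* (a regulator of translation) at least 1.88-fold and *Smim7* at least 1.79-fold. The edgeR adjusted p was 0.833 for each, so none was called, while the unadjusted p was 0.00629 for *Ctss*, 0.00924 for *1810058I24Rik* and 0.00966 for *Paip2*. In all fibroblasts *Ctss* had 32, 15 and 1 UMIs (303, 259.6 and 35.9 CPM) in HC pool 1, HC pool 2 and the CSD pool. The other barcodes held 1073, 923 and 575 CPM and free RNA held 1070, 962 and 611 CPM, both above the fibroblasts. With free RNA subtracted, *Ctss* in cells of at least 1000 UMIs was again not called (edgeR adjusted p = 0.897). *Lbp* had 16, 18 and 0 UMIs in 7, 11 and 0 cells.

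The gene lists were counted in the same fit, and of all their genes only *Btg2* was called. Over all 2301 genes the median log2 fold change was -0.08 (0.00 with genes at 0 in CSD set at their bound), 34% of genes lay above both HC libraries in CSD and 40.9% below both. Of the 5 adventitial genes tested, 1 lay above and 4 below, with a median of -1.69. The gene above was *Ly6a*, at 577, 606 and 646 CPM in HC pool 1, HC pool 2 and the CSD pool (log2 fold change 0.17). *Pi16*, for a secreted peptidase inhibitor, had 124, 40 and 8 UMIs (1174, 692 and 287 CPM) in HC pool 1, HC pool 2 and the CSD pool. *Clec3b*, for the plasminogen-binding protein tetranectin, had 53, 24 and 2 UMIs (502, 415 and 71.8 CPM). The CSD library was the lowest for both, and neither was called (edgeR adjusted p = 0.596 and 0.439). A single cell held 62.9% of the *Pi16* UMIs of HC pool 1, and without the highest cell of each library *Pi16* read 463 CPM in HC pool 1 and 498 CPM in HC pool 2, and 3 UMIs were left in the CSD pool. Both *Clec3b* UMIs of the CSD pool lay in 1 cell. The adventitial fibroblast-like group held 11, 7 and 2 cells of HC pool 1, HC pool 2 and the CSD pool, and the part of this makeup in the lower levels was not tested.

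Of 6 leptomeningeal transport and retinoid genes tested, 4 lay above both HC libraries and 2 below, with a median of 0.21, and the list summed to 2338, 7857 and 25485 CPM, with *Ptgds* most abundant on average. *Slc6a13*, too rare to be tested, had 2, 1 and 18 UMIs. *Cyp1b1*, a cytochrome of retinoid and steroid metabolism, had 9, 1 and 8 UMIs. *Ptgds* was not called (log2 fold change 2.90, edgeR adjusted p = 0.354), and its HC pools differed by more than 10-fold. In cells of at least 1000 UMIs its log2 fold change of 2.95 became 2.04 without HC pool 1 and 5.77 without HC pool 2. Of the 21 genes for matrix glycoproteins and elastic fibres tested, 7 lay above and 10 below, with a median of -0.39 (-0.17 with the 3 genes at 0 set at their bound). *Mfap5*, a microfibril component, had 133, 54 and 13 UMIs, or 1259, 935 and 467 CPM, with the CSD library below both HC libraries. *Mfap4*, a microfibril-associated glycoprotein, had 86, 24 and 41 UMIs, or 814, 415 and 1472 CPM, with the CSD library above both. Neither was called (log2 fold changes -1.21 and 1.25, edgeR adjusted p = 0.596 for each). Of the 7 other collagens tested 2 lay above and 4 below, and of 7 small leucine-rich proteoglycans 1 lay above and 1 below, with the rule genes *Dcn* and *Lum* among those between the HC libraries.

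The remaining matrix and signalling lists gave no call in either direction. Of 8 genes tested for collagen folding and crosslinking 2 lay above both HC libraries and 5 below, with a median of -0.21. Of 9 proteases and inhibitors 3 lay above and 4 below (0.01), of 5 basement membrane genes 2 and 1 (0.25), and of 14 receptors and transcription factors 8 and 4 (0.22). The insulin-like growth factor axis had 4 of 7 above and 1 below (0.17), chemokines and cytokines 1 of 5 above and none below (-0.23), and complement none of 4 above and 2 below (-1.34). All 3 TGF-beta and BMP genes tested lay above (0.60), and in cells of at least 1000 UMIs 2 of the 3 did. Both Wnt genes lay below (-1.74), among them *Sfrp4*, a secreted Wnt antagonist, with 61, 42 and 7 UMIs. In the CSD pool *Tgfbr3* had 2 UMIs and the Wnt gene *Rspo3* had 1, both under the 108 CPM that 3 counts make there. The places of these genes, and the Wnt median, are thus uncertain. Such short lists give only coarse shares beside the 34% and 40.9% of all genes.

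Among genes linked to stress hormones, tissue handling and interferon, *Btg2* was the single call. *Tsc22d3*, a glucocorticoid-induced gene, read 682, 1350 and 861 CPM in HC pool 1, HC pool 2 and the CSD pool, with the CSD library between the HC libraries. *Klf9*, another one, read 577, 744 and 610.2 CPM. Of 12 glucocorticoid-responsive genes tested 6 lay above and 2 below, with a median of 0.13. *Zbtb16*, a transcription factor, lay above both with 6, 5 and 11 UMIs (56.8, 86.5 and 395 CPM, edgeR adjusted p = 0.354). The more abundant *Nfkbia* lay below both, at 407, 744 and 287 CPM (edgeR adjusted p = 0.752). *Mt1* lay between the HC libraries, at 843, 606 and 789.7 CPM. Of 15 immediate early and dissociation genes 7 lay above, *Btg2* included, and 1 below, with a median of 0.21. Of 10 interferon-stimulated genes 4 lay above and 4 below, with a median of 0.13, and their most abundant member *Ifitm3* read 2168, 2250 and 1902 CPM. All 5 MHC class I genes tested lay below both HC libraries, with a median of -0.45. *B2m*, the light chain of MHC class I, read 1344, 1506 and 1184 CPM, and 1765, 1791 and 1482 CPM in the other barcodes.

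Lists of other cells were counted in the fibroblasts in the same way. Of the neutrophil genes 6 of 7 lay above both HC libraries, with a median of 0.51, and all 4 erythroid genes tested lay above, with a median of 1.05. Of 4 border macrophage genes tested 3 lay below (-0.89), and all 3 olfactory neuron genes lay below (-2.23, or -0.96 with the gene at 0 at its bound). The free RNA of the CSD library was the highest of the 3 for the neutrophil and erythroid lists and the lowest for the macrophage and olfactory lists. With free RNA subtracted, edgeR called 0 of 2289 genes, with 154 at the unadjusted p of 0.05. The log2 fold changes were then 4.15 for *Btg2* and 2.61 for *Ptn*, against 2.79 and 2.67 without the subtraction.

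Class 3 semaphorins, secreted guidance proteins that signal through neuropilins and plexins, were near the limit of detection. *Sema3a* had 0, 1 and 1 UMIs in the fibroblasts of HC pool 1, HC pool 2 and the CSD pool, *Sema3b* had 3, 0 and 0, and *Sema3c* had 6, 1 and 1. *Sema3d*, *Sema3e*, *Sema3f* and *Sema3g* had none, nor had *Plxna1* and *Plxnd1*, which allows up to 28.4, 51.9 and 108 CPM in the 3 libraries. *Sema3c* was at 56.8, 17.3 and 35.9 CPM against at most 0.578 CPM in the other barcodes. Of the receptors, *Nrp1* had 21, 16 and 1 UMIs in 10, 11 and 1 cells, or 199, 277 and 35.9 CPM. The CSD library was the lowest, and *Nrp1* was not called (edgeR unadjusted p = 0.0222, adjusted p = 0.596). Its CSD level lay under the 108 CPM of that library, where a level cannot be told from 0. The fitted log2 fold change of -2.58 ± 1.02 (SE) is therefore no exact fold. *Nrp2* had 7, 3 and 1 UMIs.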

How the data were processed

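Per the labels, the authors ran 10x 3′ v2 libraries, and the submitters' processing notes name Cell Ranger 2 and mm10. The deposited matrix holds raw UMI counts for 27998 genes over all barcodes, and the deposited barcode list (unit other) carries the number of the library after the hyphen, matched here to the library numbers in the labels. The matrix precedes any removal of cells or doublets. Barcodes with at least 500 UMIs, 174 to 4548 genes and under 8.3% mitochondrial UMIs were kept. The members and gene lists were chosen with earlier results of these data known. Lymphocytes had at least 3 UMIs of 2 or more lymphocyte genes. Clusters came from scanpy 1.11.5 (Leiden, resolution 0.5). Scrublet scores were computed in scanpy, which marked 50, 16 and 3 barcodes as doublets. Fibroblasts were not filtered on them, and leaving out the top 5.1% of scores per library, 10 fibroblasts among them, was an alternative.

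UMIs of the fibroblasts were summed per library. CSD was compared with HC in edgeR 4.0.16 (quasi-likelihood test, TMM, two-sided, Benjamini-Hochberg over all genes found in more than 15% of cells). DESeq2 1.42.0 was an alternative. Cells were not treated as replicates. The fit was tested on simulated data, in which most of the changed genes were not recovered. Named genes were taken by 3 criteria: at most 4 per list by level, the 12 leading genes, and the largest differences with CSD outside both HC libraries among genes of at least 100 CPM. Some genes, such as *Zbtb16* and *Cyp1b1*, were named outside these criteria. Ambiguous or absent symbols, such as *Ccl19* and *Trbc2*, were left out of the list sums. *Ltbp4*, also left out there, was found in 34.3% of the fibroblasts and so was among the genes tested. Some items withheld for evaluation are not reported here.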

Additional observations from a re-analysis of the deposited data

How the results depend on the processing

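No paired analysis was possible because HC and CSD share only replicate number 1. The share of fibroblasts in CSD stayed below the HC mean under all 8 alternatives for all cells and all 5 for cells of at least 1000 UMIs. The difference of -0.883 percentage points became -0.519 with the rule genes at 2% of UMIs and -0.169 at 5%, and the difference of -0.947 points at 1000 UMIs became -0.51 and -0.083. At 5% the shares at 1000 UMIs were 0.507%, 0.14% and 0.241%, so the CSD pool lay above HC pool 2 and the difference was within the SD of 0.26. Leaving out 1 HC library gave -1.03 to -0.74 and -1.04 to -0.858. The cause of the smaller differences was not tested.

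The 2 calls in all fibroblasts became 0 with DESeq2, 0 with genes of at least 10 UMIs, 0 with free RNA subtracted, 0 with cells thinned to 500 UMIs (401 genes tested), 5 (3 higher, 2 lower) without the top doublet scores, 3 with DESeq2 size factors and 2 with the rule genes at 5%. The 0 calls at 1000 UMIs became 2 with DESeq2 size factors, 1 with the rule genes at 5% and 1 without the top doublet scores, and were 0 otherwise. Of 183 alternative values for 22 fold changes of named genes, 8 changed sign, all of genes that were not called. Without HC pool 1, *Ccl11* went from -0.24 to 1.15, and without HC pool 2, *Igfbp6* went from -0.36 to 0.20 and *Aspn* from -0.31 to 0.53. With cells thinned, *Ccl11* went to 0.08, *Igfbp6* to 0.50 and *Igfbp7* from 0.25 to -0.74. With the rule genes at 5%, *Pcolce* went from 0.42 to -0.08 and *Igfbp7* to -1.83. *Btg2* fell to 0.07 at 5% and to 0.29 without the top doublet scores. *Ptn* ranged from 2.00 without HC pool 1 to 4.70 with the rule genes at 5%. *Ptgds* in cells of at least 1000 UMIs was called at 5% (log2 fold change 5.35) and was not called under the others with a test. The 5% cut dropped the HC pool 2 cell with 329 *Ptgds* and 22 *Ptn* UMIs, whose rule share was 1.65%. It kept the CSD cell with 465 *Ptgds* and 36 *Ptn* UMIs, at 5.29%. The values of *Ptn* and *Ptgds* at 5% thus rest on few cells. With 12 CSD cells and 27860 UMIs, a gene under 108 CPM in CSD could not be told from 0, and with 1 residual degree of freedom between libraries, leaving out an HC library gave values with no test.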

Other observations

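A further set of barcodes outside the rule held a related profile. With a cut of 1% of UMIs on *Mgp*, chosen after the values were seen, 51 barcodes of HC pool 1, 48 of HC pool 2 and 6 of the CSD pool that passed the filters but did not meet the fibroblast rule were found, or 1.96%, 2.82% and 0.218% of those that passed. They outnumbered the fibroblasts in both HC libraries and not in the CSD library. Their median UMI count was 4091, 3647 and 4528, and the 6 rule genes made up a median of 0.244%, 0.218% and 0.289% of their UMIs.

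Since these barcodes had to miss the fibroblast rule, low levels of its genes were fixed by the choice, and they are given as a description. *Col1a1* read 567, 498 and 525 CPM, against 871, 554 and 682 CPM in the fibroblasts, and *Col1a2* read 752, 876 and 665 CPM, against 1392, 865 and 969 CPM. *Col3a1* read 146, 164 and 209.9 CPM, against 1079, 727 and 682 CPM. *Dcn* read 636, 646 and 1400 CPM, against 31128, 22965 and 30330 CPM, and *Lum* read 38.7, 11 and 35 CPM. *1500015O10Rik* was higher than in the fibroblasts, at 3131, 2957 and 3464 CPM against 928, 1021 and 538 CPM, as were the Wnt enhancer *Rspo3* (975, 915 and 665 CPM against 151, 208 and 35.9 CPM) and the opioid precursor *Penk* (859, 898 and 1715 CPM against 56.8, 86.5 and 108 CPM). *Sox10* was at 0 and *Pecam1* at 4.29, 21.9 and 0 CPM. No test was run, since *Mgp* and the fibroblast rule picked these barcodes.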
